A study of Mus musculus with 6 samples.

Results

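The BCL2 family was followed through H22 tumours in 10 genes, which were taken by symbol from the 21720 gene symbols of the deposited table. The rule for taking them used family membership and no measured value, although earlier results of these data were known when it was set. These were the anti-apoptotic genes Bcl2, Bcl2l1 and Mcl1, the effector genes Bax and Bak1, and the BH3-only genes Bcl2l11, Bid, Bbc3, Bad and Pmaip1. All 10 were in the table, and all 10 passed the filter on low counts that left 14963 genes for testing. H22 is a mouse hepatocellular carcinoma cell line, which was injected under the skin of female wild-type BALB/c mice aged 6 to 8 weeks. The control group received 0.5% carboxymethyl cellulose sodium and the luteolin group 200 mg/kg luteolin, a plant flavonoid, each by gavage in 0.2 mL once a day for 21 days from a tumour volume of about 50 mm3. Each group gave 3 RNA-seq libraries of whole tumour tissue, so that the values hold the RNA of host cells as well as of H22 cells. The labels do not say whether each library came from its own mouse, and p values then measure only the spread between these libraries.

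Proteins of the BCL2 family decide whether the outer membrane of the mitochondrion stays closed during apoptosis. The effectors BAX and BAK form pores in that membrane and release cytochrome c, which leads to the activation of caspases. BCL-2, BCL-XL (Bcl2l1) and MCL-1 bind the effectors and keep them inactive, and the BH3-only proteins oppose this hold or activate the effectors directly. Much of this control lies in the proteins, by binding, cleavage, phosphorylation and degradation, and is not seen in mRNA.

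Bax and Bcl2 were the members that the study also measured by qRT-PCR. Their primers are shown because they fix which exons those assays read, in lower case, with capitals for the bases that lie in exon 4 of Bax.
Bax forward: ctcaagGCCCTGTGCACTAA
Bax reverse: ggagaggaggccttcCCAG
Bcl2 forward: ccctgtggatgactgagtacc
Bcl2 reverse: cttcagagacagccaggagaaa
Exact matches of the primers were sought in every GENCODE M21 transcript (build GRCm38). The Bax forward primer crossed the junction of exons 3 and 4 and the Bax reverse primer the junction of exons 4 and 5 of the gene on the minus strand of chromosome 7, and the amplicon was 126 bp. The Bcl2 forward primer lay in exon 1 (chr1:106712349-106712369) and the reverse primer in exon 2 (chr1:106543330-106543351) of the gene, also on the minus strand, and the amplicon was 134 bp. All bases of the 4 primers lay in coding sequence, and neither pair matched a transcript of another gene. The qRT-PCR values were not analysed here.

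Total counts ranged from 61081637 to 80442954 per library, and the members had between 125 counts (Pmaip1 in control replicate 1) and 31862 counts (Mcl1 in luteolin replicate 2) in a library. Levels are given as CPM, the count scaled to a common TMM-normalized library total, and values of a group are listed in the order of replicates 1, 2 and 3. The libraries differed in markers of other cell types. The summed level of 10 T-cell markers was 15.8 to 17.8 CPM in the control libraries and 52.9 to 101 CPM in the luteolin libraries, and 9 of the 10 genes were higher in every luteolin library. The 5 B-cell markers summed to 2.70 to 4.90 against 6.63 to 25.1 CPM (2 of 5 genes). The sum of 8 neutrophil markers was 46.3 to 52.4 against 125 to 229 CPM (5 of 8 genes), that of 8 macrophage markers 798 to 923 against 1312 to 1815 CPM (6 of 8), and that of 6 fibroblast markers 1408 to 1575 against 2012 to 4976 CPM (5 of 6). The sum of 10 keratinocyte markers was 4.09 to 5.08 CPM in the control libraries, where 7 of the genes, Krt14 among them, were at 0, and 396, 8965 and 17.4 CPM in the luteolin libraries. Endothelial, adipocyte and skeletal muscle markers overlapped between the groups. The 8 hepatocyte and hepatoma markers overlapped as well, with sums of 45.9 to 134 against 77.1 to 189 CPM. Of these 8 genes, 1 was below all controls in the luteolin libraries, and another 1 was above all controls. The gene below was Afp, the most abundant of the list. Afp had 59.4, 66.7 and 43.4 CPM in the control libraries and 32.7, 41.8 and 38.8 CPM in the luteolin libraries. In such bulk samples, fewer cells of a type and less RNA per cell cannot be told apart.

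None of the 3 anti-apoptotic genes passed the test, and their groups overlapped. Mcl1, whose protein is short-lived and binds BAK, BIM and NOXA, had 372, 435 and 456 CPM in the control libraries and 462, 381 and 418 CPM in the luteolin libraries. The groups overlapped, and the log2 fold change of luteolin against control was -0.0033 (SE 0.15, 95% interval -0.35 to 0.35, adjusted p = 0.994). Here and below, p comes from the quasi-likelihood test of edgeR and is adjusted after Benjamini and Hochberg unless another tool is named, and SE is the standard error. Bcl2, the founding member of the family, had 28.0, 29.7 and 30.9 CPM in the control libraries and 28.7, 20.4 and 37.4 CPM in the luteolin libraries. The lowest and the highest of the 6 values were thus luteolin libraries, and the SD was 8.48 CPM in the luteolin group against 1.44 CPM in the control group (n = 3 each). For Bcl2 the log2 fold change was -0.035 (SE 0.24, 95% interval -0.61 to 0.54, adjusted p = 0.956). Bcl2l1, which encodes the long-lived inhibitor BCL-XL, had 62.3, 41.4 and 40.8 CPM in the control libraries and 56.8, 59.7 and 54.1 CPM in the luteolin libraries. All 3 luteolin values lay above control replicates 2 and 3 and below control replicate 1, and the log2 fold change was 0.24 (SE 0.21, 95% interval -0.25 to 0.73, adjusted p = 0.572). It was 0.44 without control replicate 1 (unadjusted p under 0.05) and remained short of an adjusted p of 0.05.

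The effector genes also overlapped between the groups. Bax had 84.1, 59.6 and 32.5 CPM in the control libraries and 64.5, 86.3 and 52.9 CPM in the luteolin libraries. The controls alone spanned a 2.59-fold range, and 1 of the 3 luteolin values lay outside that range, by 86.3 against 84.1 CPM. Group means were 67.9 ± 17.0 CPM with luteolin and 58.7 ± 25.8 CPM without (SD, n = 3 each). The log2 fold change was 0.21 (SE 0.36, 95% interval -0.64 to 1.06, adjusted p = 0.801). The sign of this value rested on control replicate 3, without which the log2 fold change was -0.085. Bak1, the second pore-forming effector, had 89.6, 81.3 and 69.5 CPM in the control libraries and 81.3, 86.2 and 75.7 CPM in the luteolin libraries. All its luteolin values lay within the control range, and the log2 fold change was 0.016 (SE 0.15, 95% interval -0.35 to 0.38, adjusted p = 0.969).

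**Figure D1:**
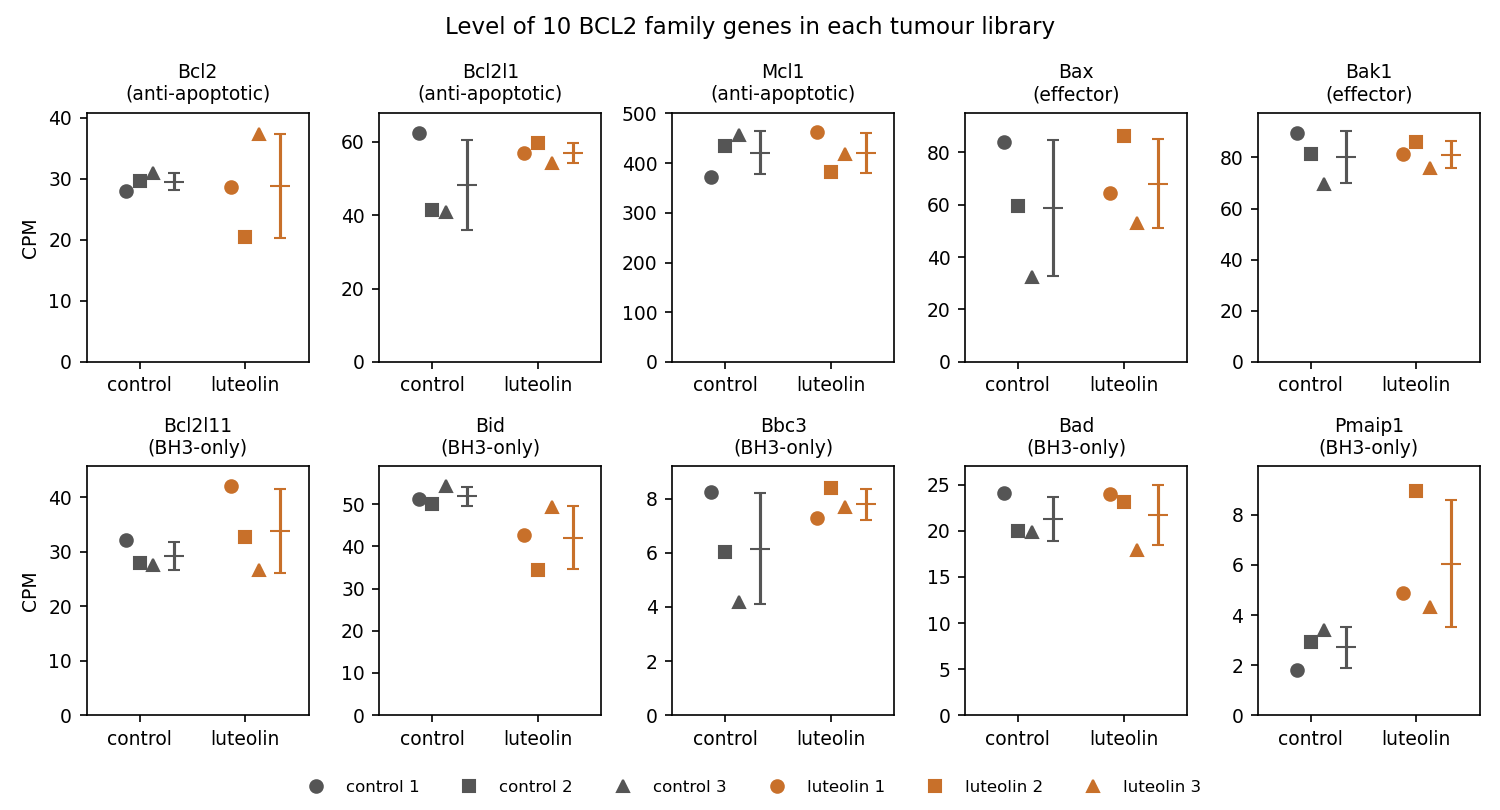
CPM of each of the 10 members (vertical axis, from 0, separate scale per gene) in the 3 control (grey) and 3 luteolin (orange) libraries, with symbols for the replicate number and a bar for mean ± SD (n = 3). Pmaip1 is above every control in all luteolin libraries and Bid below, and the groups overlap for the other 8 genes.

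The BH3-only genes held the members whose groups did not overlap. Pmaip1, which encodes NOXA, a ligand mainly of MCL-1, had 1.79, 2.92 and 3.41 CPM in the control libraries and 4.88, 8.96 and 4.30 CPM in the luteolin libraries. Every luteolin library lay above every control library, and luteolin replicate 2 was the highest by a wide margin. Its counts were 125, 189 and 220 against 299, 749 and 275. Luteolin replicate 2 also had the highest sum of every marker list except the hepatocyte and hepatoma list, and the part of its other cells in the Pmaip1 value was not tested. The log2 fold change was 1.16, or 2.24-fold (SE 0.44, 95% interval 0.12 to 2.21, unadjusted p = 0.0342, adjusted p = 0.205), which passed the study's threshold of an unadjusted p under 0.05 with a fold change over 2 and did not pass an adjusted p of 0.05. The call at the study's threshold rested on single libraries. Without luteolin replicate 2 the log2 fold change was 0.78, and without control replicate 1 it was 0.89. Without control replicate 2 it was 1.18 with an unadjusted p above 0.05.

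Bid, which encodes a protein that caspase-8 and granzyme B cleave into an activator of BAX and BAK, had 51.3, 50.1 and 54.3 CPM in the control libraries and 42.6, 34.4 and 49.3 CPM in the luteolin libraries. Every luteolin library was below every control library. The log2 fold change of -0.30 (SE 0.18, 95% interval -0.72 to 0.12, adjusted p = 0.399) passed neither threshold. Bcl2l11, which encodes BIM, an activator that binds every anti-apoptotic member, had 32.2, 27.9 and 27.6 CPM in the control libraries and 42.0, 32.7 and 26.7 CPM in the luteolin libraries. The luteolin libraries held both its highest and its lowest value, and the log2 fold change was 0.21 (SE 0.21, 95% interval -0.29 to 0.71, adjusted p = 0.641).

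Bbc3, which encodes PUMA, a p53-induced activator, had 8.26, 6.04 and 4.19 CPM in the control libraries and 7.28, 8.41 and 7.71 CPM in the luteolin libraries. Control replicate 1 lay among the luteolin values and the other controls below them, and the log2 fold change was 0.34 (SE 0.33, 95% interval -0.44 to 1.12, adjusted p = 0.623). Bad, whose protein is held inactive by growth-factor phosphorylation, had 24.1, 20.0 and 19.9 CPM in the control libraries and 24.1, 23.1 and 18.0 CPM in the luteolin libraries, and its log2 fold change was 0.026 (SE 0.20, 95% interval -0.45 to 0.50, adjusted p = 0.963).

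At the study's threshold, 1 of the 10 members (Pmaip1) was higher, beside 11.3% of all genes tested, and 0 were lower, beside 1.52%. A share of 1 in 10 is near that background. At an adjusted p under 0.05, 0 members were called in edgeR, beside 1.34% of all genes higher and 0.187% lower, and 1 had an unadjusted p under 0.05, beside 20.5% of all genes. DESeq2, the tool the study names, also called 0 members at an adjusted p under 0.05, beside 9.59% of its genes higher and 2.58% lower, and 1 had an unadjusted p under 0.05, beside 21.3%. At the study's threshold DESeq2 called 1 member higher and 0 lower, beside 11.5% and 1.61% of its genes. The voom method of limma with sample quality weights called 0 members at an adjusted p under 0.05, beside 12.6% of genes higher and 8.76% lower. In that fit 3 members had an unadjusted p under 0.05, beside 36.6% of genes. Without luteolin replicate 2, edgeR called 0 members in either direction by both thresholds, beside 7.52% of genes higher and 1.84% lower at the study's threshold and 1.82% higher and 0.238% lower at an adjusted p under 0.05. Of the 10 members, 1 lay above every control in all luteolin libraries, beside 15.9% of all genes, and 1 below, beside 12.8%. The 95% interval of the log2 fold change lay between -1 and 1 for 7 of the 10 members, beside 46.8% of all genes tested. The exceptions were Pmaip1, Bbc3 and Bax, for which a change of more than 2-fold upwards was not excluded by the interval. The median log2 fold change was 0.12 over the members and -0.0073 over all genes tested.

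**Figure D2:**
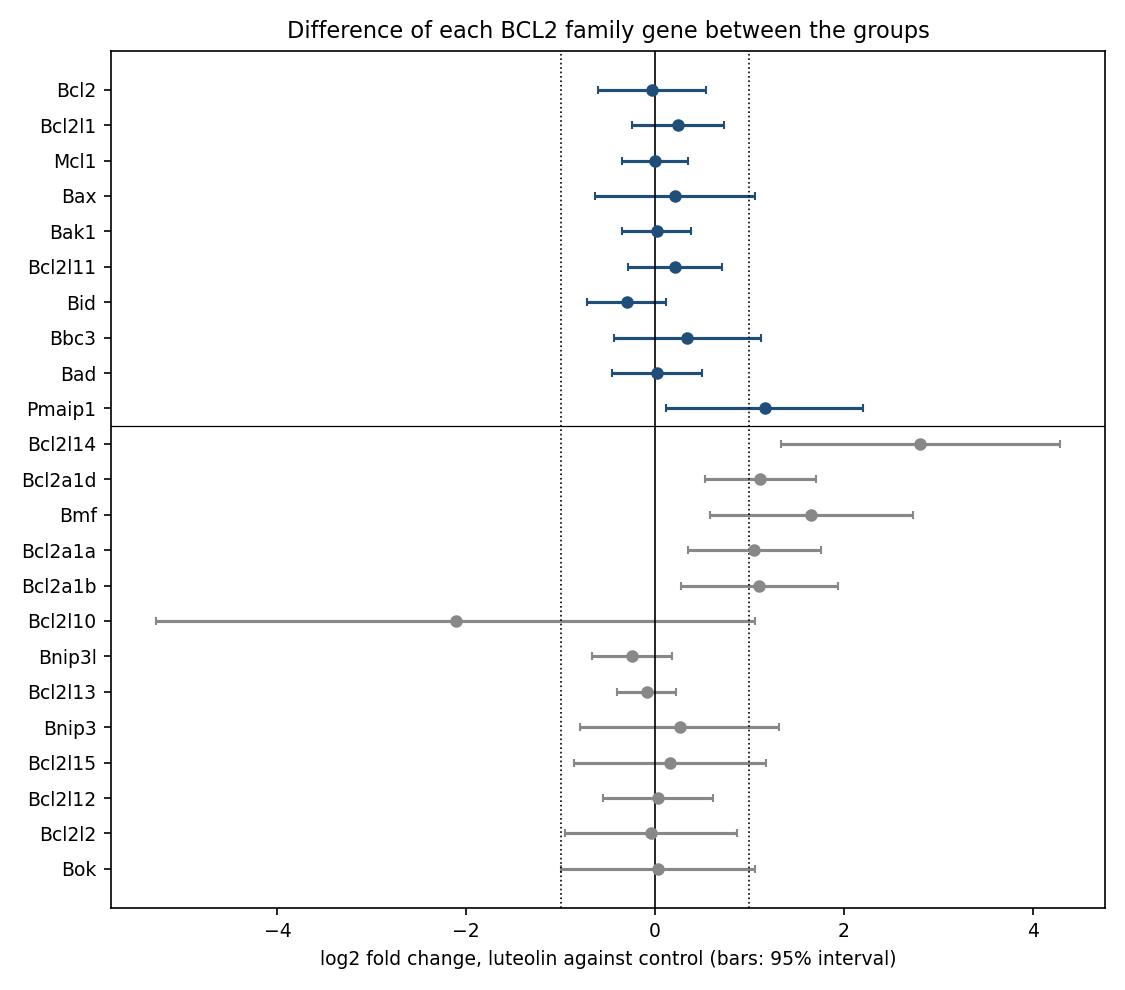
Log2 fold change of luteolin against control (horizontal axis) with its 95% interval from edgeR for the 10 members (blue, above the line) and 13 other BCL2 family genes that were tested (grey), with dotted lines at -1 and 1. Most members centre near 0, and Pmaip1 of the members and Bcl2l14, Bmf and the Bcl2a1 genes of the others lie to the right of 1, while Bik is left out because its control libraries had 0 to 2 counts.

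Levels of different genes were compared as CPM per kilobase of exon, with the union of exons in GENCODE M21 as the length. In the control libraries Mcl1 had the highest level, at 123 ± 12.8 CPM per kilobase (SD, n = 3), followed by Bax at 37.3 ± 16.4, Bak1 at 33.3 ± 4.19, Bid at 14.6 ± 0.620, Bcl2l1 at 10.5 ± 2.67, Bad at 8.34 ± 0.930, Bcl2l11 at 3.64 ± 0.318, Bcl2 at 3.23 ± 0.158, Bbc3 at 2.90 ± 0.959 and Pmaip1 at 0.991 ± 0.305. By its mean over all 6 libraries, Mcl1 stood above 98.1% of the tested genes with a known length, Bax above 92.3% and Bak1 above 90.2%. By the same measure Bcl2 stood at the 37.5th percentile and Pmaip1 at the 27.4th. Over all 6 libraries, the ranges of neighbours in this order did not overlap between Mcl1 and Bax, between Bak1 and Bid, and between Bad and Bcl2l11, and they overlapped for the other 6 of the 9 neighbouring pairs. The order in the luteolin group differed by exchanges between such overlapping neighbours, with Bcl2l1 above Bid and Bbc3 above Bcl2.

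**Figure D3:**
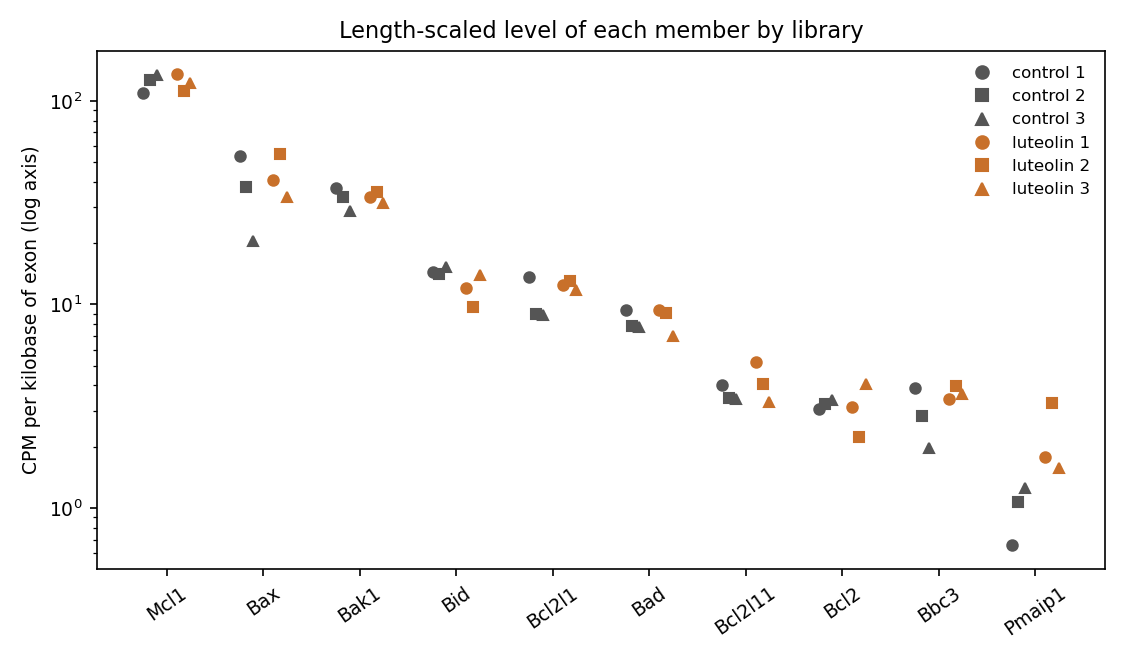
CPM per kilobase of exon on a log axis (vertical) for each member, ordered by its control mean, in 3 control (grey) and 3 luteolin (orange) libraries. Mcl1 is separate from all other members in every library, and Bax is the member that spreads most within the control group among the 6 genes of highest level.

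Mcl1 made up 52.0% ± 7.79 of the summed level per kilobase of the 10 members with control treatment and 50.1% ± 4.30 with luteolin (SD, n = 3 each). The 3 anti-apoptotic genes together held 57.8% ± 7.13 and 56.4% ± 4.48, the 2 effectors 29.4% ± 7.23 and 31.2% ± 4.71, and the 5 BH3-only genes 12.8% ± 0.549 and 12.4% ± 0.262. The share of Bcl2 was between 0.902% and 1.76% in all libraries. Each of these shares overlapped between the groups, but that of Pmaip1 was 0.263% to 0.555% in the control libraries and 0.677% to 1.33% in the luteolin libraries.

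The ratio of Bax to Bcl2 is often read as a measure of readiness for apoptosis, and it was computed within each library as a difference of log2 CPM. It was 1.58, 1.00 and 0.072 in the control libraries and 1.17, 2.08 and 0.50 in the luteolin libraries. The groups overlapped, and the difference between their means was 0.36, smaller than the SD of either group (0.76 for the controls and 0.79 for the luteolin libraries). Its sign changed without control replicate 3 (-0.045) and without luteolin replicate 2 (-0.053). The ratios of Bax to Bcl2l1, Bax to Mcl1, Bak1 to Mcl1, Bcl2l11 to Bcl2 and Bbc3 to Bcl2 overlapped as well, with differences from 0.017 to 0.47. These ratios were not adjusted for base composition, and adjusted ones are given below. The log2 ratio of Pmaip1 to Mcl1, a ligand and the protein it binds, was -7.68, -7.21 and -7.05 in the control libraries and -6.56, -5.41 and -6.59 in the luteolin libraries, without overlap.

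Part of the spread of the members within the control group moved with base composition. A single pair of libraries is given for each group. Bbc3 and Bax have GC contents of 65.2% and 63.6% in their longest transcripts, above 99.7% and 99.4% of tested genes, and Pmaip1 has the lowest GC content of the members, at 42.1%. Between control replicates 1 and 3, the difference in log2 CPM was 1.37 for Bax and 0.97 for Bbc3 but -0.92 for Pmaip1. Over the 10 members this difference and the GC content had a Spearman correlation of 0.88, and over 14635 tested genes one of 0.65, in both cases from the same pair of libraries. Between luteolin replicates 2 and 3 the correlations were 0.12 over the members and 0.50 over the 14635 genes, and Pmaip1 stood on the other side, with a difference of 1.05.

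**Figure D4:**
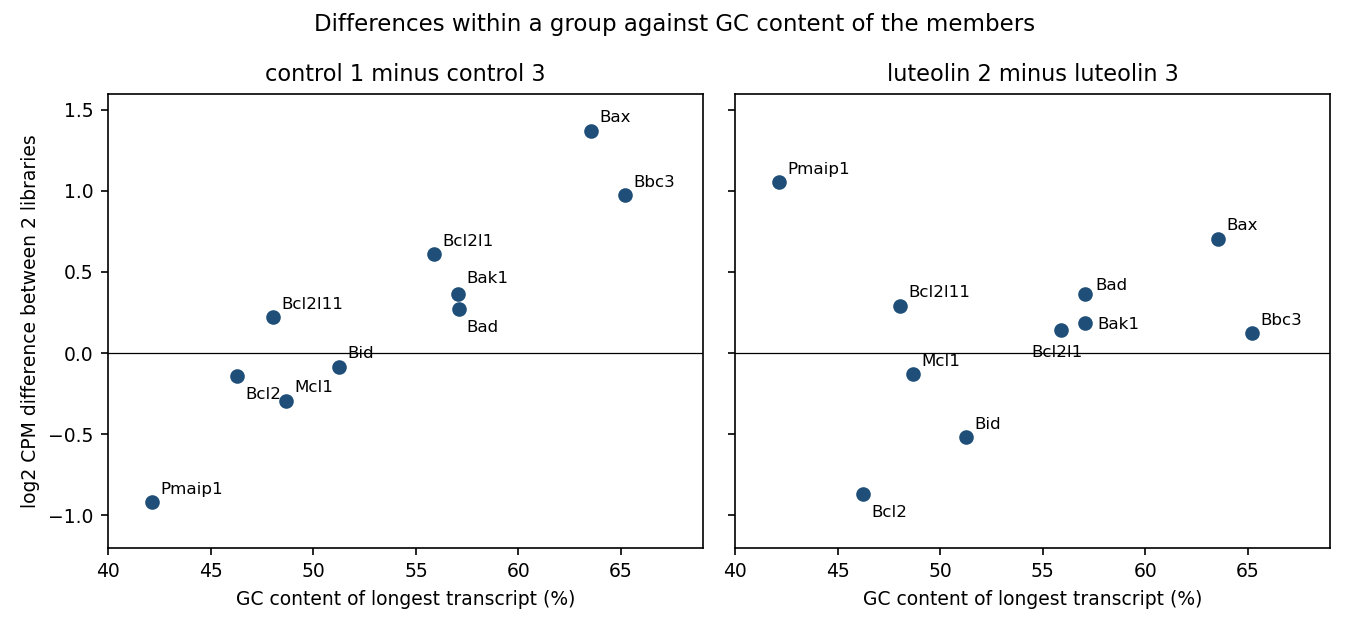
Difference in log2 CPM between 2 libraries of a group (vertical axis) against the GC content of the longest transcript in percent (horizontal axis) for the 10 members. In the control pair (left) the points climb from Pmaip1 at -0.92 to Bax at 1.37, whereas in the luteolin pair (right) Pmaip1 is the highest point at 1.05.

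With offsets for GC content and length in each library, the SD of log2 CPM of Bax fell from 0.69 to 0.23 in the control group and from 0.36 to 0.11 in the luteolin group. For Bbc3 it went from 0.49 to 0.029 in the control group and from 0.10 to 0.33 in the luteolin group, and for Pmaip1 from 0.48 to 0.11 and from 0.56 to 0.90. In the luteolin group the SD of Bcl2 fell from 0.44 to 0.27. It rose there for all the other members, among them Bcl2l1 (0.071 to 0.17), Bak1 (0.094 to 0.22) and Bid (0.26 to 0.38). In the control group the SD rose for Bid (0.061 to 0.15) and Bcl2l11 (0.12 to 0.13) and fell for the remaining members. The log2 fold changes in that fit were 0.22 for Bax (SE 0.14, 95% interval -0.12 to 0.56, adjusted p = 0.377), 0.44 for Bbc3 (SE 0.25, adjusted p = 0.318), 0.025 for Bcl2 (SE 0.16, adjusted p = 0.941) and 1.40 for Pmaip1 (SE 0.50, unadjusted p = 0.0261, adjusted p = 0.132). The interval of Bax thus narrowed to below 1. The calls of the members were the same as without the offsets. The log2 ratios within libraries were also taken with these offsets. For Bbc3 to Bcl2 they were -2.33, -2.33 and -2.17 in the control libraries and -1.80, -1.97 and -1.86 in the luteolin libraries, without overlap. For Bax to Bcl2 they were 1.11, 0.98 and 0.78 in the control libraries and 1.31, 1.33 and 0.89 in the luteolin libraries. These groups overlapped, and the difference between their means was 0.22. The other ratios overlapped or not as without the offsets.

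The reads of some members cannot be separated from those of overlapping genes, since the use of strand in counting is not given in the sources used here. Exons of Bid share 628 bp, 17.7% of their length, with exons of Bcl2l13 on the opposite strand. Those of Bak1 share 614 bp (25.5%) with Ggnbp1 and those of Bad 524 bp (20.5%) with Gpr137, both on the opposite strand. Per library, Bcl2l13 had 5524 to 8807 counts against 2612 to 3583 for Bid. Ggnbp1 had 97 to 303 against 4484 to 7202 for Bak1, and Gpr137 had 1279 to 3462 against 1148 to 1930 for Bad. Exons of Bcl2 share 558 bp, 6.09% of their length, with D630008O14Rik on the opposite strand. Exons of Bax share 192 bp, 12.2% of their length, with Gm45808 on the same strand, which no use of strand would separate, and Gm45808 had 22, 0 and 25 counts in the control libraries and 0 in each luteolin library. D630008O14Rik was not among the symbols of the deposited table. The reads that fell in the shared exons were not measured. The shared length therefore does not give the size of the error in the levels of these 5 members. Bcl2l13 itself had a log2 fold change of -0.090 (adjusted p = 0.77).

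Of 15 other genes of the family and its relatives, 14 were tested, and 6 of them were higher at the study's threshold and 0 lower, beside 11.3% and 1.52% of all genes tested. These were the near-identical copies Bcl2a1a, Bcl2a1b and Bcl2a1d, which need not be separate observations, and Bcl2l14, Bmf and Bik. Bik had 2, 0 and 0 counts in the control libraries, so only its luteolin libraries could carry it past the filter on low counts. That filter thus favoured its call as higher and its lack of overlap. With at least 10 counts in every library, Bik was not tested, and 5 of the other family genes were higher. Every luteolin library lay above every control library for each of the 6 genes, beside 15.9% of all genes. Their adjusted p values were 0.081 to 0.158 in edgeR, where 0 of the 14 genes reached 0.05, and the 6 were called at an adjusted p under 0.05 by DESeq2 and also by voom, beside 9.59% and 12.6% of all genes higher in these fits. The median log2 fold change of the 14 genes was 0.21, also with Bik at the lower limit of its ratio, which lies above the median in either case.

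The Bcl2a1 genes encode A1, an anti-apoptotic protein of haematopoietic cells. Bcl2a1d had 7.76, 11.8 and 9.91 CPM in the control libraries and 17.5, 23.6 and 22.6 CPM in the luteolin libraries, and the log2 fold change was 1.11 (SE 0.25, adjusted p = 0.0815). Bcl2a1a and Bcl2a1b had log2 fold changes of 1.05 and 1.11. The copies are near-identical, so the division of reads between them is uncertain. Their sum was 19.3, 34.0 and 34.0 CPM in the control libraries and 55.6, 61.9 and 69.1 CPM in the luteolin libraries, a 2.14-fold difference of means. Without control replicate 1 the fold changes of all 3 copies fell below 2-fold, to log2 values of 0.82, 0.79 and 0.94 for Bcl2a1a, Bcl2a1b and Bcl2a1d, which left 3 of the 14 genes at the study's threshold. Bcl2a1a also fell short without luteolin replicate 2 (0.98) or 3 (0.97), and Bcl2a1b without luteolin replicate 3 (0.92). The T-cell, neutrophil and macrophage markers given above moved in the same direction, and their part in the Bcl2a1 values was not tested.

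Bmf, a BH3-only gene whose protein can be bound to the cytoskeleton, had 3.92, 2.33 and 2.70 CPM in the control libraries and 8.46, 14.5 and 5.26 CPM in the luteolin libraries (log2 fold change 1.66, SE 0.46, adjusted p = 0.119). Bcl2l14 had 13, 20 and 29 counts in the control libraries and 75, 284 and 130 counts in the luteolin libraries (log2 fold change 2.81, SE 0.62, adjusted p = 0.081). Bik, which encodes a BH3-only protein, had 2, 0 and 0 counts in the control libraries and 12, 61 and 16 counts in the luteolin libraries. The ratio of its group totals, scaled to library size, was 42.5 (exact 95% interval 11.4 to 356.0, counting error only). In luteolin replicate 2 all of Bmf, Bcl2l14 and Bik had their highest value. That library also had the highest sum of every marker list except the hepatocyte and hepatoma list, and the part of its other cells was not tested.

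The remaining relatives did not pass the study's threshold in edgeR. Bcl2l2, an anti-apoptotic gene, had a log2 fold change of -0.043 (95% interval -0.95 to 0.87), and Bok, an effector-like gene, of 0.033 (95% interval -0.99 to 1.06). The mitophagy receptor genes Bnip3 and Bnip3l had log2 fold changes of 0.26 and -0.25, and Bcl2l12 and Bcl2l15 of 0.032 and 0.16. Bcl2l10 was low throughout, with 12, 37 and 53 counts in the control libraries and 4, 0 and 19 in the luteolin libraries (log2 fold change -2.11, SE 1.34, adjusted p = 0.435), and it passed the study's threshold under voom (-2.59) and without luteolin replicate 3 (-4.02). Voom gave log2 fold changes of -0.93 for Bcl2l2 and 0.69 for Bnip3, with adjusted p values of 0.0685 and 0.071. Hrk had 5 counts in control replicate 2 and 0 elsewhere and was not tested. A count of 0 in a library allows for as many as 3.

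Downstream of the mitochondrion, a list of 15 apoptosis genes, not all of them of caspase activation or its inhibition, had a median log2 fold change of -0.075. Aifm1, which encodes a flavoprotein that mitochondria release in cell death, had 97.3 ± 2.10 CPM in the control group and 63.7 ± 6.12 CPM in the luteolin group (SD, n = 3 each), and the log2 fold change, -0.61 (SE 0.14, adjusted p = 0.0845), was short of 2-fold. Of 11 genes for mitochondrial channels, import, fusion and fission, 0 were higher and 0 lower at the study's threshold, beside 11.3% and 1.52% of all genes tested. Also 0 of them had an unadjusted p under 0.05 in edgeR, beside 20.5% of all genes. The smallest p values there belonged to Opa1 and Mfn2, which act in mitochondrial fusion, with log2 fold changes of -0.48 and -0.29 (adjusted p = 0.294 and 0.449).

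Of 15 p53 target genes outside the family, 2 were higher at the study's threshold (Fas and Perp) and 1 lower (Trp53inp1), beside 11.3% and 1.52% of all genes, and the median log2 fold change was 0.11. Perp and Trp53inp1 were chosen for naming after their values were seen. Fas, a death receptor gene, had 1.19, 2.84 and 3.16 CPM in the control libraries and 9.40, 7.74 and 6.57 CPM in the luteolin libraries (log2 fold change 1.72, SE 0.45, adjusted p = 0.108). Perp, which is also a gene of epithelial cell junctions, had 27.7, 639 and 6.56 CPM in luteolin replicates 1, 2 and 3 against 4.44, 6.73 and 5.83 CPM, and its log2 fold change of 5.31 was 1.61 without luteolin replicate 2. Its call was lost without control replicate 1 (log2 fold change 5.06) or control replicate 3 (5.32), where the unadjusted p rose above 0.05. Trp53inp1 had a log2 fold change of -1.15 (adjusted p = 0.162), and it fell short of the threshold without control replicate 2 (-1.16), without control replicate 3 (-0.85) or without luteolin replicate 2 (-0.85). Tnfrsf10b, the TRAIL receptor gene, had 214 ± 8.57 CPM in the control group and 126 ± 15.7 CPM in the luteolin group (SD, n = 3 each), and the log2 fold change was -0.77 (SE 0.15, adjusted p = 0.0613).

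Of 18 regulators of the family, 1 was higher at the study's threshold and 0 were lower, beside the same shares of all genes, with a median log2 fold change of 0.042. Stat5b, which encodes a cytokine-activated transcription factor, had 6.65, 7.63 and 8.92 CPM in the control libraries and 22.6, 48.0 and 19.5 CPM in the luteolin libraries (log2 fold change 1.96, SE 0.38, adjusted p = 0.0635). Bag3, the gene of a co-chaperone that binds BCL-2, had a log2 fold change of -0.63 (SE 0.19, adjusted p = 0.139).

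The tested genes whose log2 CPM followed that of Bax most closely over the 6 libraries were Rras, Atp5d and 1810058I24Rik, with Pearson correlations of 0.998, 0.994 and 0.992. For Bcl2 they were Retnlg, Zbtb10 and Lars, with 0.993, 0.987 and 0.987. These values describe 6 points that share their library depth and base composition, and 531 genes had a correlation over 0.9 with Bax and 207 with Bcl2.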

How the data were processed

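RNA-seq libraries of tumours from the control and luteolin groups were analysed (3 each, grouped by their titles), and 0 columns of the table were left out. The authors deposited estimated counts per gene symbol, whole numbers not scaled between libraries. Of the values from 1 to 40, 42.7% to 45.7% per library were multiples of 4, so that 1 unit need not be 1 read pair. The submitters' processing notes name bcl2fastq 2.0, HISAT2, StringTie and DESeq2 and the builds mm39 and rn6, without saying which was used for what. No coordinates were therefore taken from the table. GENCODE M21 (GRCm38) gave exon lengths and GC contents for the 10 members and for 21053 of the symbols, and positions of the primers.

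Counts were compared in R 4.3.3 with edgeR 4.0.16 (TMM, filterByExpr, quasi-likelihood test, no covariates). Tests were two-sided, and adjustment after Benjamini and Hochberg ran over the 14963 genes tested. Log2 CPM had a prior count of 2, and intervals are 95%. The members, lists and tests were chosen with earlier results of these data known. Named were all members, all other family genes tested, and the 2 genes with the smallest p of each further list with any called at an adjusted p under 0.05, and for Bax and Bcl2 the 3 genes of highest correlation. Other names were chosen after their values were seen. A gene that this rule names, and the calls of its list, are not reported here. Marker genes are given by the sum of their list and its most abundant gene. Lists are described by counts and medians without a set test.

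Alternatives were DESeq2 1.42.0, voom of limma 3.58.1 with sample quality weights, RLE and upper-quartile normalization, no filter on low counts, at least 10 counts in every library, division of all values by 4, per-library offsets for GC content and the length of the exon union (splines with df 4 and 3, centred to a mean of 0), the replicate number as a block with and without these offsets, a prior count of 0.5, the longest transcript as length and the omission of 1 library at a time. The fits were tested on simulated data. The depth gives at least 125 counts for a member in each library, and intervals on counts cover counting error only.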

Additional observations from a re-analysis of the deposited data

How the results depend on the processing

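Of the 10 members, 0 were called at an adjusted p under 0.05 and 0 were lower at the study's threshold under each of the 16 alternatives to the fit. The number higher went from 1 to 0 under voom with sample quality weights (log2 fold change of Pmaip1 0.80) and under the replicate block (1.14, short on its p), and was 0 to 1 with 1 library left out. Deviations of libraries with the same replicate number were weakly correlated (-0.20, -0.092 and 0.063), which cannot show whether the numbers pair the libraries. The block took the calls at an adjusted p under 0.05 over all genes from 200 higher and 28 lower to 34 and 1. Those calls were 1543 and 415 in DESeq2, 1886 and 1311 under voom, 660 and 229 with GC and length offsets, 196 and 23 with offsets and block, 345 and 47 with at least 10 counts in every library, 327 and 46 after division by 4, 276 and 36 without luteolin replicate 2, and 0 without luteolin replicate 1 or any control replicate. Of the other family genes, 3 were higher and 1 lower at the study's threshold under voom, beside 1752 and 498 of 14963 genes. With 1 library left out, 3 to 6 of them were higher and 0 to 1 lower, beside 1139 to 2104 and 140 to 305 of all genes tested. In these reduced sets, 1 to 3 members were above all controls and 1 below, and the share over all genes was not computed. The difference in the log2 ratio of Bax to Bcl2 was -0.053 to 0.74 with 1 library left out. The Mcl1 share of the summed level in controls was 44.6% with the longest transcript as length.

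Genes near 0 changed sign, and the cause was not tested. With GC and length offsets the log2 fold changes were 0.025 (Bcl2), -0.087 (Bak1), -0.082 (Bad), -0.089 (Bcl2l12) and -0.089 (Bok), and with offsets and replicate block 0.0090, -0.096, -0.093, -0.087 and -0.10. Under voom they were 0.011 (Bcl2), 0.060 (Mcl1), -0.0072 (Bak1), -0.029 (Bcl2l12), -0.20 (Bcl2l15) and -0.31 (Bok). Upper-quartile normalization gave 0.0066 (Bcl2), 0.042 (Mcl1) and 0.0084 (Bcl2l2), no filter -0.0059 (Bak1) and -0.0078 (Bok), the replicate block -0.0021 (Bok), at least 10 counts 0.013 (Mcl1) and division by 4 0.0070 (Mcl1). With 1 library left out the ranges were -0.30 to 0.18 (Bcl2), -0.11 to 0.081 (Mcl1), -0.085 to 0.52 (Bax), -0.079 to 0.075 (Bak1), -0.056 to 0.10 (Bad), -0.13 to 0.21 (Bcl2l12), -0.16 to 0.38 (Bcl2l15), -0.28 to 0.28 (Bcl2l2), -0.054 to 0.64 (Bnip3) and -0.44 to 0.27 (Bok). The 3 libraries per group limit the precision: intervals of Bax, Bbc3 and Pmaip1 reach beyond 2-fold.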
